A study of Mus musculus with 6 samples.

Results

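The 10 genes described here encode the cytosolic HSP70 and HSP90 chaperones of the mouse and their closest partners. They were Hspa8, Hspa1a, Hspa1b, Hspa4, Hspa4l, Hsph1, Hsp90aa1, Hsp90ab1, Dnaja1 and Dnajb1, each taken by its gene name from a table of 55740 gene models. Expression was measured by RNA sequencing in bone marrow-derived dendritic cells, antigen-presenting cells grown in culture from C57BL/6J mouse bone marrow. The lysine group comprised 3 samples given 18 mM lysine, a cationic amino acid, for 6 h, and the PBS group comprised 3 samples given phosphate-buffered saline. No time is named for the PBS samples. All 6 samples shared the strain and cell type, and no genetic change is named for either group. The labels name neither separate animals nor separate cultures, so the p-values speak for these 6 samples and their spread could be technical in origin.

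HSP70 chaperones bind short hydrophobic stretches of unfolded proteins in a cycle driven by ATP. J-domain proteins (HSP40) bring clients to HSP70 and speed its ATP hydrolysis, and nucleotide exchange factors such as the HSP110 proteins reset it. HSP90 dimers receive partly folded clients from HSP70, among them kinases and steroid receptors, and cochaperones set the pace of that cycle. Some of these genes are constitutive and others are induced by the heat shock transcription factor HSF1 when proteins unfold. In dendritic cells, cytosolic HSP70 and HSP90 are also known for their part in antigen handling.

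The values are TPM, a length-scaled share of all transcripts in a sample, so the depth of the libraries is unknown and no counting error could be given. Between 12277 and 12393 gene models reached 1 TPM in the lysine samples and between 12375 and 12449 in the PBS samples. Transcripts of the mitochondrial genome took 4.33% to 4.45% of all TPM in the lysine samples and 4.35% to 4.66% in the PBS samples. Markers of dendritic cells summed to 5379 to 7229 TPM in the lysine samples and 4951 to 7515 TPM in the PBS samples, with 16 of 18 tested, 4 higher and 2 lower, while Cd209a, a lectin often used as a marker of cultured dendritic cells, lay at or under 0.17 TPM in every sample. Macrophage markers summed to 731 to 766 TPM in the lysine samples and 800.3 to 850 TPM in the PBS samples, and 5 of 10 tested were lower. Neutrophil markers summed to 37.1 to 45.4 TPM in the lysine samples and 77.6 to 117 TPM in the PBS samples (1 of 3 tested lower), with Elane at 0 throughout. S100a8, the gene called lower, made up most of that sum. It stood at 32.75 to 37.25 TPM in the lysine samples and 69.06 to 108.17 TPM in the PBS samples. The other neutrophil markers tested, S100a9 and Retnlg, were not called. T and NK cell markers summed to 7.83 to 40.8 TPM in the lysine samples and 26.3 to 68.8 TPM in the PBS samples (1 of 6 tested lower). Mast cell and basophil markers summed to 8.81 to 13.9 TPM in the lysine samples and 14.4 to 19.3 TPM in the PBS samples (1 of 4 tested lower, Mcpt4 at 0). The lower gene was Cpa3, a mast cell protease gene at 0.24 to 0.6 TPM in the lysine samples and 2.24 to 6.09 TPM in the PBS samples, which met the filter only through the PBS samples. B cell, erythroid and fibroblast markers stayed at or under 5.06 TPM in sum in every sample. No B cell or fibroblast marker passed the filter on low values, and the 1 erythroid marker that did was not called. Beside these counts, 25.8% of all genes tested were called higher and 29.3% lower. The part of these cell types in the results below was not tested, and in bulk samples fewer cells of a type and less RNA per cell cannot be told apart.

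The lysine samples were set against the PBS samples to compare transcript levels between the treatments. Among the chaperone genes, 5 of 10 were called, beside 55.1% of all genes tested, and they went both ways. Hspa8, the constitutive cytosolic HSP70 known as HSC70, fell 3.06-fold in mean TPM. It was the 1 member called with at least 2-fold on the log2(TPM + 1) scale, beside 13.0% of all genes tested. The stress-inducible HSP70 genes Hspa1a and Hspa1b also fell, to a smaller extent, and the call of Hspa1b was lost in 8 of 14 alternative settings. Hspa4l, an HSP110 protein of the exchange factor class, and Hsp90aa1, the inducible HSP90, rose. The constitutive HSP90 gene Hsp90ab1, the exchange factor genes Hspa4 and Hsph1 and the J-domain genes Dnaja1 and Dnajb1 did not pass the test.

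All 10 genes passed the filter on low values, which asked for at least 1 TPM in at least 3 samples, and their values ran from 10.21 to 1884 TPM. The test was limma on log2(TPM + 1), fitted across 12539 genes with Benjamini-Hochberg adjustment, and the threshold for a call was an adjusted p of 0.05. Of the 10 genes, 2 were called higher, against 25.8% of all genes tested, and 3 were called lower, against 29.3%. The 5 called members make a share near that of all genes, of which 55.1% were called. The lysine and PBS groups did not overlap for 5 of the 10 members, beside 63.4% of all genes tested. The median log2 fold change of the members was -0.05, and it was -0.05 over all genes tested as well. By these counts the family did not stand apart from all genes tested.

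**Figure D1:**
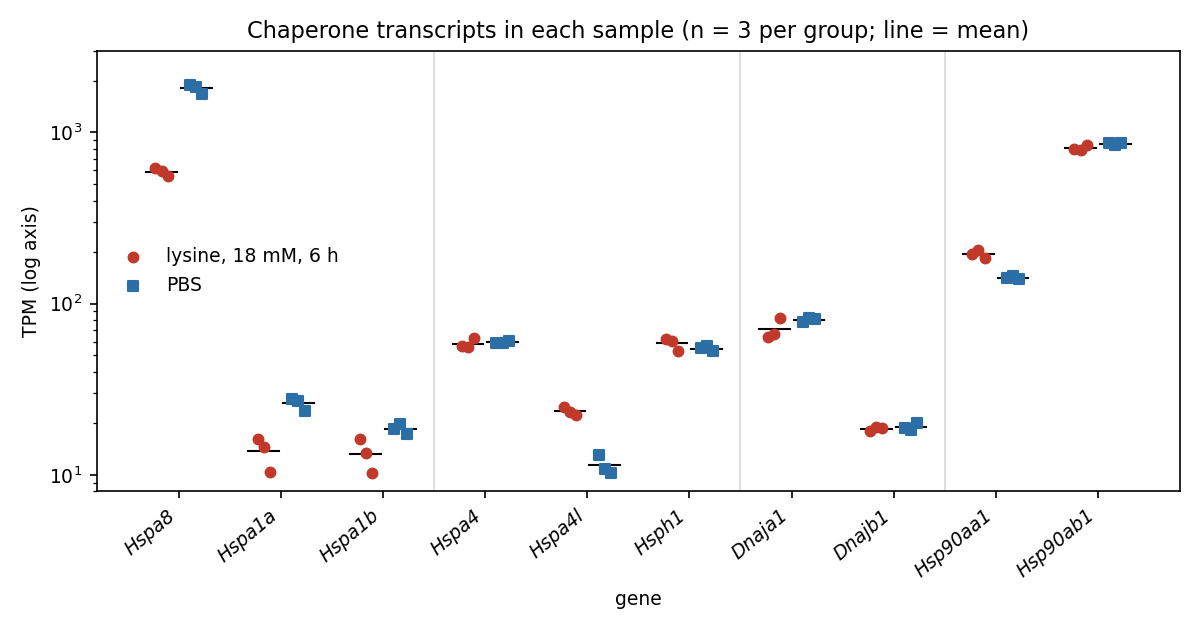
TPM on a log axis of each of the 10 chaperone genes, with lysine samples as circles to the left of PBS samples as squares and a line at each mean (n = 3 per group). The 3 lysine samples of Hspa8 lie at 553 to 620 TPM, all under the PBS samples at 1685 to 1884 TPM, whereas the points of Dnajb1, Hspa4 and Hsp90ab1 overlap between groups.

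Hspa8 folds new proteins, strips clathrin from vesicles and delivers proteins to the lysosome in chaperone-mediated autophagy. Its gene lies on chromosome 9 of GRCm38 at 40800984 to 40810087 on the plus strand (ENSMUSG00000015656), and its longest coding transcript has 9 exons. Hspa8 stood at 620.41, 596.14 and 552.93 TPM in the lysine samples, against 1883.63, 1848.72 and 1685.15 TPM in the PBS samples. The groups lay far apart: the highest lysine sample was under the lowest PBS sample by more than the spread within either group. Means were 589.8 ± 34.2 TPM with lysine and 1806 ± 106 TPM with PBS (SD, n = 3 each), a log2 fold change of -1.61 ± 0.068 (SE; limma, adjusted p = 2.43e-05). By mean TPM, Hspa8 ranked 259th of all gene models with lysine and 80th with PBS. Of the genes tested, 1.59% had a lower log2 fold change.

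Mouse Hspa8 has processed pseudogenes, copies of its spliced RNA inserted elsewhere in the genome, and reads that match a copy equally well can be divided between them. Of all windows of 100 bases in the longest coding Hspa8 transcript, 62.8% also occur in 1 or more of 7 annotated pseudogenes. Their summed level was 0.03 to 0.22 TPM in the lysine samples and 0.51 to 0.66 TPM in the PBS samples, small beside Hspa8 itself. With the copies added to Hspa8, an alternative chosen after seeing the data, the log2 fold change was -1.61.

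Hspa1a and Hspa1b encode the stress-inducible HSP70, which binds unfolded proteins under stress. They are intronless neighbours on chromosome 17 of GRCm38, both on the minus strand, Hspa1b at 34956436 to 34959238 and Hspa1a at 34969190 to 34972156, with 9951 bases between them. The 250 bases upstream of each start site, from the RefSeq promoter table of build GRCm38.p6, are shown because these genes are close copies. Their transcripts match at 91.4% of aligned bases, and both had lower mean TPM with lysine. Capitals mark GAANNTTC, a pair of inverted units taken here as the heat shock element core.
Hspa1a, chr17:34972157-34972406, minus strand: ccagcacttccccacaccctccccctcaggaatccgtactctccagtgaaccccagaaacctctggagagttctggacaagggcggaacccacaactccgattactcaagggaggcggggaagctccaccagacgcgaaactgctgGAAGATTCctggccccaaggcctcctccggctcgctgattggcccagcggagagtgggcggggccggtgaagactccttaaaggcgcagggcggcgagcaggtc
Hspa1b, chr17:34959239-34959488, minus strand: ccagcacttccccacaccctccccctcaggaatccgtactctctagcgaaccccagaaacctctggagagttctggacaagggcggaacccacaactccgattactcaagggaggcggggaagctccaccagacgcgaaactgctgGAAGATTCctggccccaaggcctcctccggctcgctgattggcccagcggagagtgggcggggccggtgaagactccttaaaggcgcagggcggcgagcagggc
The stretches differ at 3 of 250 bases and share an unbroken run of 201 identical bases. In each, the GAANNTTC match covers bases 104 to 97 before the start site. Of 32851 promoter entries, 6.69% hold GAANNTTC in the same upstream length, and 12.8% hold it or its counterpart TTCNNGAA. Both motifs read the same on either strand, so a search covers both, and they can overlap each other. A match is a description of the letters and not a measured binding site. Longer patterns of 3 inverted units were searched as well, in both orientations. They occur in 0.244% and 0.247% of promoter entries, and no entry of a chaperone gene described here held either.

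Hspa1a stood at 16.24, 14.57 and 10.36 TPM in the lysine samples, against 27.72, 27.01 and 23.64 TPM in the PBS samples. Every lysine sample was under every PBS sample. Means were 13.7 ± 3.03 TPM with lysine and 26.1 ± 2.18 TPM with PBS (SD, n = 3 each; log2 fold change -0.90 ± 0.16 (SE), limma adjusted p = 0.00371). Hspa1b stood at 16.2, 13.43 and 10.21 TPM in the lysine samples, against 18.59, 19.9 and 17.24 TPM in the PBS samples. The groups did not overlap here either, but the gap between the nearest samples was about 1 TPM wide. The log2 fold change of Hspa1b was -0.47 ± 0.16 (limma, adjusted p = 0.0417), and the call was lost in 8 of 14 alternatives, where adjusted p reached 0.115. Those 8 were no filter beyond a value above 0, median-of-ratios scaling, quantile normalization, and leaving out PBS replicate 1, 2 or 3 or lysine replicate 2 or 3.

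Because the transcripts are so alike, the split between Hspa1a and Hspa1b is uncertain. Of the 100-base windows of the Hspa1a transcript, 47.1% also occur in Hspa1b, and 49.9% of those of Hspa1b occur in Hspa1a. Summed, the pair reached 32.44, 28 and 20.57 TPM in the lysine samples, against 46.31, 46.91 and 40.88 TPM in the PBS samples. Every lysine sample lay lower, with lysine replicate 3 the lowest. The summed pair, fitted as 1 gene, had a log2 fold change of -0.73 (limma, adjusted p = 0.00877). The ratio of Hspa1a to Hspa1b was 1.002, 1.08 and 1.01 in the lysine samples and 1.49, 1.36 and 1.37 in the PBS samples, so the groups did not overlap in the estimated split. This ratio was chosen after its values were seen and is given with no test.

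The HSP110 genes Hspa4, Hspa4l and Hsph1 encode large relatives of HSP70 that act as its nucleotide exchange factors. Hspa4l, first described in the mouse as a protein of kidney cells under osmotic stress, stood at 24.9, 23.2 and 22.21 TPM in the lysine samples, against 12.99, 10.8 and 10.23 TPM in the PBS samples. The groups did not overlap. Means were 23.4 ± 1.36 TPM with lysine and 11.3 ± 1.46 TPM with PBS (SD, n = 3 each), and Hspa4l rose 2.07-fold in mean TPM (log2 fold change 0.99 ± 0.10 (SE), limma adjusted p = 0.000411). Its gene lies on chromosome 3 at 40744495 to 40796103 on the plus strand (ENSMUSG00000025757).

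Hspa4 stood at 56.64, 55.85 and 62.64 TPM in the lysine samples, against 59.24, 58.94 and 60.53 TPM in the PBS samples, with overlapping groups. Its log2 fold change was -0.03, with a 95% interval from -0.18 to 0.12 (limma, adjusted p = 0.71), and was 0.018 under median-of-ratios scaling. The Hspa4 gene lies on chromosome 11 at 53259814 to 53300457 and the Hsph1 gene on chromosome 5 at 149614287 to 149636376, both on the minus strand. Hsph1 stood at 62.09, 60.31 and 53.21 TPM in the lysine samples, against 54.82, 56.19 and 52.96 TPM in the PBS samples. The ranges overlapped through lysine replicate 3, and the log2 fold change was 0.09, with an interval from -0.08 to 0.27 (limma, adjusted p = 0.315). Among the HSP110 genes, Hspa4l thus made up 16.1% to 17.3% of their summed TPM in the lysine samples and 8.27% to 10.2% in the PBS samples.

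The upstream stretches of Hspa4l and Hsph1 are shown because they are HSP110 genes with unlike values, Hspa4l called higher and Hsph1 not called. Each is upstream of a RefSeq start site that lies inside the gene span given above, so the Hspa4l stretch is itself within that span. Capitals mark TTCNNGAA, the other orientation of the heat shock element core, which 7.17% of promoter entries hold.
Hspa4l, chr3:40745363-40745612, plus strand: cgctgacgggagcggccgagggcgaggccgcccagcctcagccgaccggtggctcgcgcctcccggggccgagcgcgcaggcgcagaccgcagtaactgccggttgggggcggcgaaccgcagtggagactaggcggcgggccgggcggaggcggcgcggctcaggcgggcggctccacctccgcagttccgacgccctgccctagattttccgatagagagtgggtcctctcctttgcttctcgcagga
Hsph1, chr5:149636337-149636586, minus strand: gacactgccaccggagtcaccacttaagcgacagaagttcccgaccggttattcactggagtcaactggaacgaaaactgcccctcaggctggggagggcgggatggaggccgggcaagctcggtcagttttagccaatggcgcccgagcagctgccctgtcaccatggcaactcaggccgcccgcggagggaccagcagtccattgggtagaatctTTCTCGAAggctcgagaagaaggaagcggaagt
The Hsph1 stretch holds a match at bases 33 to 26 before this start site, 1 of the 2 start sites listed for Hsph1, and the Hspa4l stretch holds neither letter pattern. The table held 7 of the 10 members, with 11 entries among them. Besides the genes above, 1 of 3 Dnaja1 entries held GAANNTTC, and the Hspa4 entry and both Dnajb1 entries held no match in these windows.

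Dnaja1 and Dnajb1 encode J-domain proteins of the major cytosolic classes, which hand clients to HSP70. Dnaja1 stood at 63.41, 66.81 and 82.29 TPM in the lysine samples, against 77.77, 82.91 and 81.34 TPM in the PBS samples. Lysine replicates 1 and 2 were under all PBS samples and lysine replicate 3 was within their range. The log2 fold change was -0.19, with a 95% interval from -0.44 to 0.05 (limma, adjusted p = 0.151). Without lysine replicate 3 it was -0.30 and passed the test (adjusted p = 0.00673), and under quantile normalization it was -0.25 (adjusted p = 0.0438). Dnajb1, a heat shock-inducible J-domain gene, stood at 18.1, 19.04 and 18.73 TPM in the lysine samples, against 18.73, 18.18 and 20.02 TPM in the PBS samples. The groups overlapped, and the log2 fold change was -0.02, with an interval from -0.19 to 0.14 (limma, adjusted p = 0.783). Its sign turned under median-of-ratios scaling (0.022) and without PBS replicate 3 (0.012). On the plus strand, Dnaja1 lies on chromosome 4 at 40722150 to 40737149 and Dnajb1 on chromosome 8 at 83608193 to 83612653.

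Hsp90aa1 and Hsp90ab1 encode the inducible HSP90 alpha and the constitutive HSP90 beta. Hsp90aa1 stood at 195.76, 206.09 and 184.25 TPM in the lysine samples, against 140.77, 144.6 and 138.99 TPM in the PBS samples. All lysine samples lay above all PBS samples. Means were 195 ± 10.9 TPM with lysine and 141 ± 2.87 TPM with PBS (SD, n = 3 each), and Hsp90aa1 rose 1.38-fold (log2 fold change 0.46 ± 0.058 (SE), limma adjusted p = 0.000799). The gene lies on chromosome 12 at 110690605 to 110702728 on the minus strand, and 3 pseudogenes that share 47.5% of its 100-base windows reached at most 0.4 TPM in sum in the lysine samples and 0.55 TPM in the PBS samples.

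Hsp90ab1 stood at 800.52, 793.89 and 843.66 TPM in the lysine samples, against 865.62, 840.57 and 868.31 TPM in the PBS samples. The groups overlapped through lysine replicate 3. The gene lies on chromosome 17 at 45567775 to 45573271 on the minus strand. The log2 fold change was -0.08, with a 95% interval from -0.19 to 0.04 (limma, adjusted p = 0.204). Together the HSP90 genes reached 996 to 1028 TPM in the lysine samples and 985 to 1007 TPM in the PBS samples, with overlapping groups. Hsp90aa1 made up 17.9% to 20.6% of that sum in the lysine samples and 13.8% to 14.7% in the PBS samples.

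**Figure D2:**
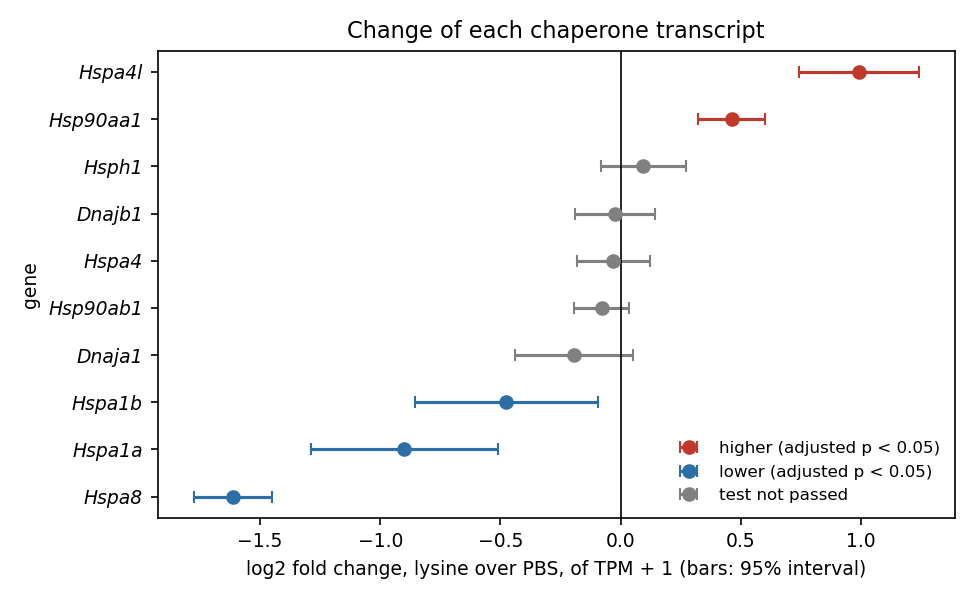
Log2 fold change of lysine over PBS on the log2(TPM + 1) scale for each chaperone gene, with bars for the 95% interval from limma (n = 3 per group). Hspa8 stands lowest at -1.61, Hspa4l highest at 0.99, and the intervals of 5 genes include 0.

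The balance between inducible and constitutive forms was read as a ratio within each sample, which does not move with the scaling of that sample. The ratio of Hsp90aa1 to Hsp90ab1 was 0.245, 0.26 and 0.218 in the lysine samples, against 0.163, 0.172 and 0.16 in the PBS samples. The 3 lysine samples lay above the 3 PBS samples, by 0.54 in mean log2 ratio (exact two-sided permutation test over samples, p = 0.1, the smallest p this design allows). The ratio of Hspa1a plus Hspa1b to Hspa8 was 0.0523, 0.047 and 0.0372 in the lysine samples, against 0.0246, 0.0254 and 0.0243 in the PBS samples. Again the 3 lysine samples lay above the 3 PBS samples, by 0.86 in mean log2 ratio (exact two-sided permutation test, p = 0.1). In that ratio both parts were lower with lysine, and Hspa8 was lower by the larger factor. With a smallest possible p of 0.1, these tests cannot pass 0.05.

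**Figure D3:**
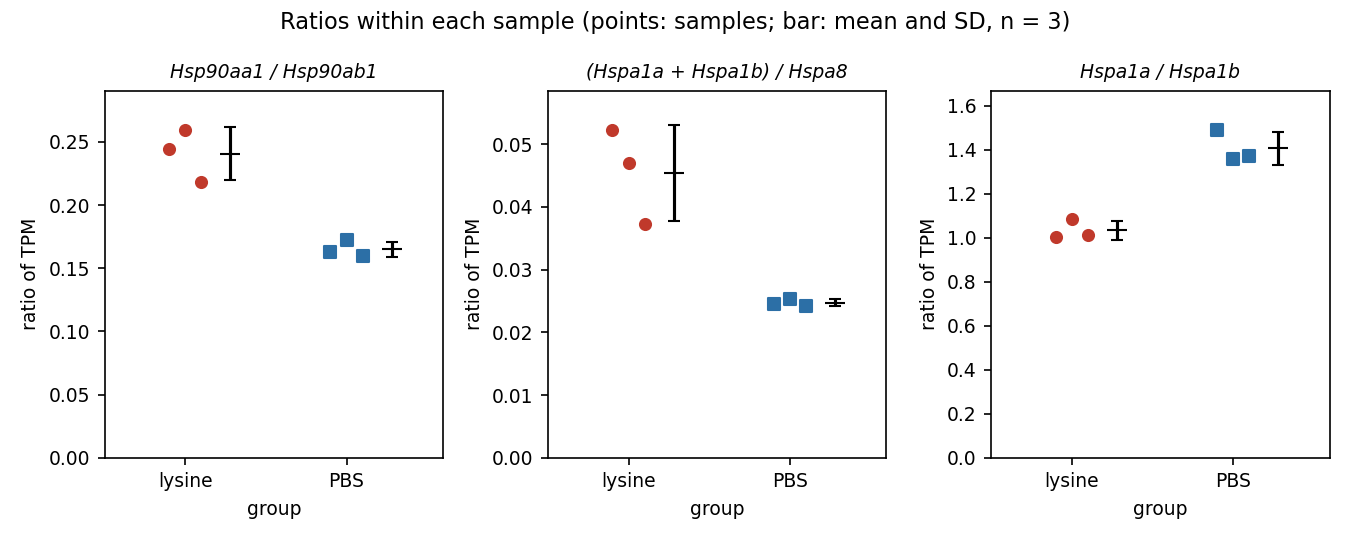
Ratios of TPM within each sample for Hsp90aa1 over Hsp90ab1, for Hspa1a plus Hspa1b over Hspa8 and for Hspa1a over Hspa1b, with lysine left of PBS, a point per sample and the mean with its SD (n = 3). The groups do not overlap in any of the panels, with the HSP90 ratio at 0.218 to 0.26 in lysine samples and 0.16 to 0.172 in PBS samples.

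Most of the difference between the groups in the summed level of the family came from Hspa8. The 10 transcripts together reached 1874, 1849 and 1840 TPM in the lysine samples, against 3160, 3108 and 2958 TPM in the PBS samples. The lysine mean was 0.603 of the PBS mean, and the groups did not overlap. Without Hspa8 the sums were 1254, 1253 and 1288 TPM in the lysine samples and 1276, 1259 and 1273 TPM in the PBS samples, and the groups overlapped. Hspa8 carried 99.6% of the difference between the group means of the full sum. The mean differences of the other members, called or not, nearly cancelled. Hspa8 made up 30.04% to 33.1% of the sum in the lysine samples and 57.0% to 59.6% in the PBS samples. Hsp90ab1 made up 42.7% to 45.8% and 27.0% to 29.4% in lysine and PBS samples. Sums over the members are given with no test.

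**Figure D4:**
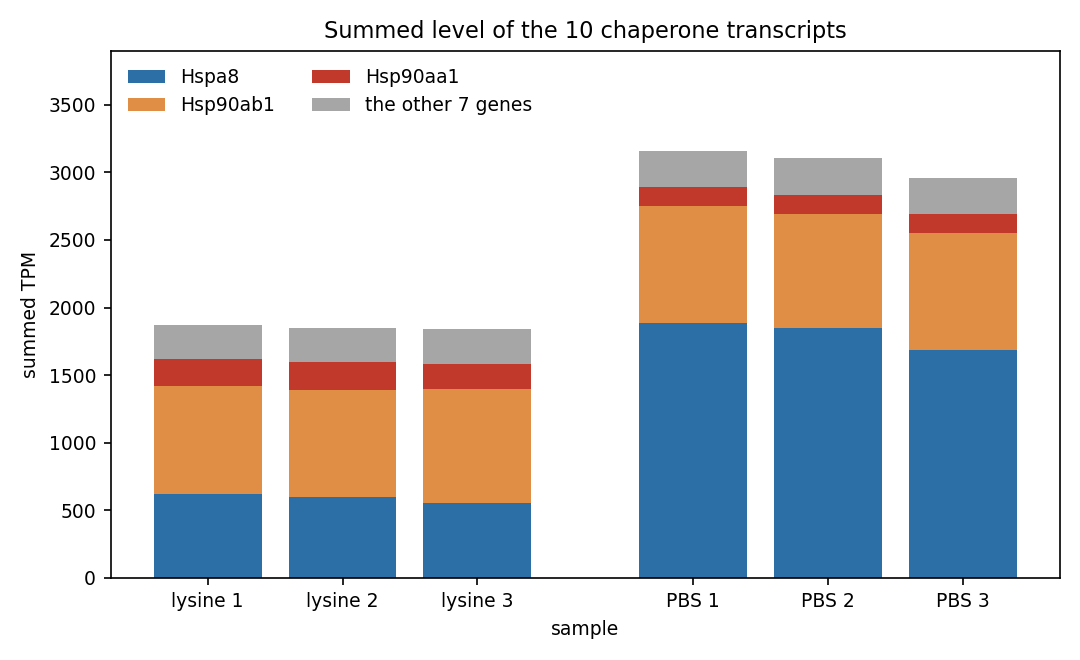
Summed TPM of the 10 chaperone genes in each sample, stacked from the bottom as Hspa8, Hsp90ab1, Hsp90aa1 and the other 7 genes, with the lysine samples left of the PBS samples. The Hspa8 segment is 553 to 620 TPM tall in the lysine samples and 1685 to 1884 TPM tall in the PBS samples, and the stack above it is of like height in all 6.

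By mean TPM, which is scaled per length and so can be set between genes, the order with lysine was Hsp90ab1, Hspa8, Hsp90aa1, Dnaja1, Hsph1, Hspa4, Hspa4l, Dnajb1, Hspa1a and Hspa1b. With PBS it was Hspa8, Hsp90ab1, Hsp90aa1, Dnaja1, Hspa4, Hsph1, Hspa1a, Dnajb1, Hspa1b and Hspa4l. Hspa8 and Hsp90ab1 exchanged the top places, and the samples of these 2 genes did not overlap within either group. Hspa4l was the lowest member with PBS and stood above Dnajb1 and both Hspa1 genes with lysine. Neighbours whose samples overlapped were Hsph1 and Hspa4, and Hspa1a and Hspa1b, in the lysine group, and Dnajb1 and Hspa1b in the PBS group.

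Genes with the most similar pattern were taken as those with the smallest root mean square difference of centred log2(TPM + 1) over the 6 samples. For Hspa8 these were Selenbp1 (0.0539), Sdf2l1 (0.0604) and Acot11 (0.0741). Sdf2l1, which encodes a partner of chaperones in the endoplasmic reticulum, averaged 41.9 TPM with lysine and 138 TPM with PBS, 3.30-fold lower. Selenbp1 and Acot11 were far lower in level, at 1.90 and 1.09 TPM with lysine and 7.99 and 5.51 TPM with PBS. Their mean TPM fell 4.21-fold and 5.04-fold, against 3.06-fold for Hspa8. Both thus match Hspa8 with 1 TPM added but not in fold of mean TPM. For Hspa4l they were Mob2 (0.0528), Cnot4 (0.0554) and Galc (0.0667), and for Hsp90aa1 they were Rbm7 (0.0213), Ppfia1 (0.0234) and Osbpl8 (0.0285). These are descriptions of likeness, dominated by the difference between the groups.

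Related chaperone genes were read from the same fit in 8 lists. Over all of them, 78 of 92 genes were tested and 38 were called, 16 higher and 22 lower. These shares, 20.5% higher and 28.2% lower, stand beside 25.8% and 29.3% of all genes tested, and the median log2 fold change was -0.13.

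Among the heat shock transcription factors, which induce chaperone genes, none of the factors themselves was called. Hsf1, the main stress factor, stood at 14.52, 12.72 and 18.42 TPM in the lysine samples, against 16.52, 15.26 and 19.22 TPM in the PBS samples (log2 fold change -0.16, limma adjusted p = 0.398). Hsf2 averaged 11.7 ± 0.497 TPM with lysine and 14.0 ± 1.31 TPM with PBS (adjusted p = 0.0668), and it passed without PBS replicate 3 (adjusted p = 0.0367). Hsf4 had a log2 fold change of -0.11, and Hsf5 was under the filter. Hsbp1, which encodes a small protein that binds HSF1 trimers, rose to 157 ± 2.62 TPM with lysine, against 126 ± 5.21 TPM with PBS (log2 fold change 0.32, limma adjusted p = 0.0024).

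Of 18 further J-domain genes tested, 5 rose, 2 fell and 11 did not pass (median log2 fold change -0.03). The share called was 38.9%, beside 55.1% of all genes tested. Dnajb6, known to hold back protein aggregation, averaged 142 ± 7.22 TPM with lysine and 111 ± 1.42 TPM with PBS (adjusted p = 0.00218). Dnaja2, of the same class as Dnaja1, averaged 76.6 ± 3.54 TPM with lysine and 60.2 ± 0.659 TPM with PBS (adjusted p = 0.00247). Dnajc2, which works at the ribosome, fell to 15.9 ± 1.28 TPM with lysine, against 27.98 ± 2.85 TPM with PBS (adjusted p = 0.000882). Hspa14, an HSP70 at the ribosome that is counted with the cofactors below, was lower as well, at 19.4 ± 2.19 TPM with lysine and 29.0 ± 1.42 TPM with PBS (adjusted p = 0.00309). Dnajb13, the other J-domain gene called lower, was at 0.39, 0.74 and 0.51 TPM in the lysine samples, against 1.83, 1.77 and 2.6 TPM in the PBS samples. It met the filter only through the PBS samples, so the filter favoured its call, and with no filter beyond a value above 0 its limma adjusted p was 0.0101.

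Among 11 exchange factors and cofactors of HSP70, 4 rose, 4 fell and 3 did not pass (median log2 fold change 0.02). The share called was 72.7%, beside 55.1% of all genes tested. Bag6, which guards newly made membrane proteins, averaged 118 ± 4.67 TPM with lysine and 69.5 ± 2.53 TPM with PBS (log2 fold change 0.76, limma adjusted p = 0.000123). Its partner Sgta averaged 89.1 ± 8.67 TPM with lysine and 60.1 ± 3.07 TPM with PBS (log2 fold change 0.56), and Bag4 rose by 0.64 on the same scale. Bag3, an HSF1-inducible exchange factor that links HSP70 to autophagy, fell to 24.1 ± 1.45 TPM with lysine, against 30.4 ± 0.624 TPM with PBS (log2 fold change -0.33, adjusted p = 0.00703).

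HSP90 cochaperones were called in 10 of 23 cases, 2 higher and 8 lower, with a median log2 fold change of -0.14. That is 43.5% called, where all genes tested had 55.1% called, 25.8% higher and 29.3% lower. Ahsa1, which stimulates the ATPase of HSP90, fell to 76.1 ± 3.69 TPM with lysine, against 104 ± 2.24 TPM with PBS (limma adjusted p = 0.000877). Cacybp fell to 32.4 ± 1.27 TPM with lysine, against 49.6 ± 4.39 TPM with PBS, and Fkbp8, an FK506-binding protein of the mitochondrial surface, had a log2 fold change of -0.34. Nudcd2, which has the fold of the cochaperone p23, rose to 104 ± 2.56 TPM with lysine, against 53.3 ± 2.45 TPM with PBS (log2 fold change 0.96, adjusted p = 6.25e-05). Stip1, which joins HSP70 to HSP90, averaged 64.2 ± 1.61 TPM with lysine and 67.4 ± 4.14 TPM with PBS and did not pass (adjusted p = 0.393).

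Of the 6 paralogues in other compartments, 2 rose, 3 fell and 1 did not pass (median log2 fold change -0.36). The share called was 83.3%, beside 55.1% of all genes tested. Hspa9, the mitochondrial HSP70, stood at 370.08, 368.75 and 446.9 TPM in the lysine samples, against 134.43, 136.16 and 141.77 TPM in the PBS samples. The groups did not overlap, and Hspa9 rose by 1.51 on the log2 scale (limma, adjusted p = 5.25e-05), opposite in sign to Hspa8. Trap1, the mitochondrial HSP90, fell to 18.0 ± 3.12 TPM with lysine, against 32.7 ± 3.1 TPM with PBS (log2 fold change -0.83, adjusted p = 0.00207). In the endoplasmic reticulum, the HSP90 gene Hsp90b1 fell to 253 ± 5.1 TPM with lysine, against 371 ± 19.3 TPM with PBS (log2 fold change -0.55, adjusted p = 0.000349), and the HSP110 gene Hyou1 fell by 0.59 on the log2 scale. Hspa5, the HSP70 of the endoplasmic reticulum known as BiP, averaged 336 ± 20.3 TPM with lysine and 377 ± 42.2 TPM with PBS (adjusted p = 0.186), and passed without PBS replicate 3 (log2 fold change -0.26, adjusted p = 0.0229). Hspa13, a microsomal HSP70, was the other gene that rose (log2 fold change 0.49, adjusted p = 0.031).

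Small heat shock proteins, which hold unfolded proteins until HSP70 acts, were mostly low. Of 5 tested, 1 was called, Hspb11, a member by name that is known as part of the ciliary transport complex, with 5.0 ± 2.38 TPM with lysine and 12.1 ± 2.66 TPM with PBS (limma adjusted p = 0.0157). That call was lost without PBS replicate 3 (adjusted p = 0.0511). The heat-inducible Hspb1 was at 1.58, 2.23 and 0.39 TPM in the lysine samples, against 3.0, 1.28 and 1.07 TPM in the PBS samples (adjusted p = 0.63). Hspb3 and Hspb8 were listed at 0 in all samples. Of the HSP70 genes outside the members, Hspa2 and Hspa12a were tested and neither was called.

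A list of 20 further genes known as HSF1 targets was read as well, 10 of which the lists above also hold. Of the 20, 18 were tested, 3 rose, 8 fell and 7 did not pass (median log2 fold change -0.23). The share called was 61.1% of those tested. Over all genes tested, 55.1% were called, 25.8% higher and 29.3% lower. Hmox1, a haem-degrading enzyme that NRF2 also controls, fell to 477 ± 17.4 TPM with lysine, against 2321 ± 34.1 TPM with PBS (limma adjusted p = 3.1e-06). The collagen-modifying enzyme gene P4ha1 fell to 37.9 ± 1.49 TPM with lysine, against 67.3 ± 5.88 TPM with PBS (log2 fold change -0.81). Zfand2a, an arsenite-inducible zinc finger gene tied to the proteasome, rose to 78.6 ± 2.01 TPM with lysine, against 46.1 ± 3.83 TPM with PBS (log2 fold change 0.76).

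**Figure D5:**
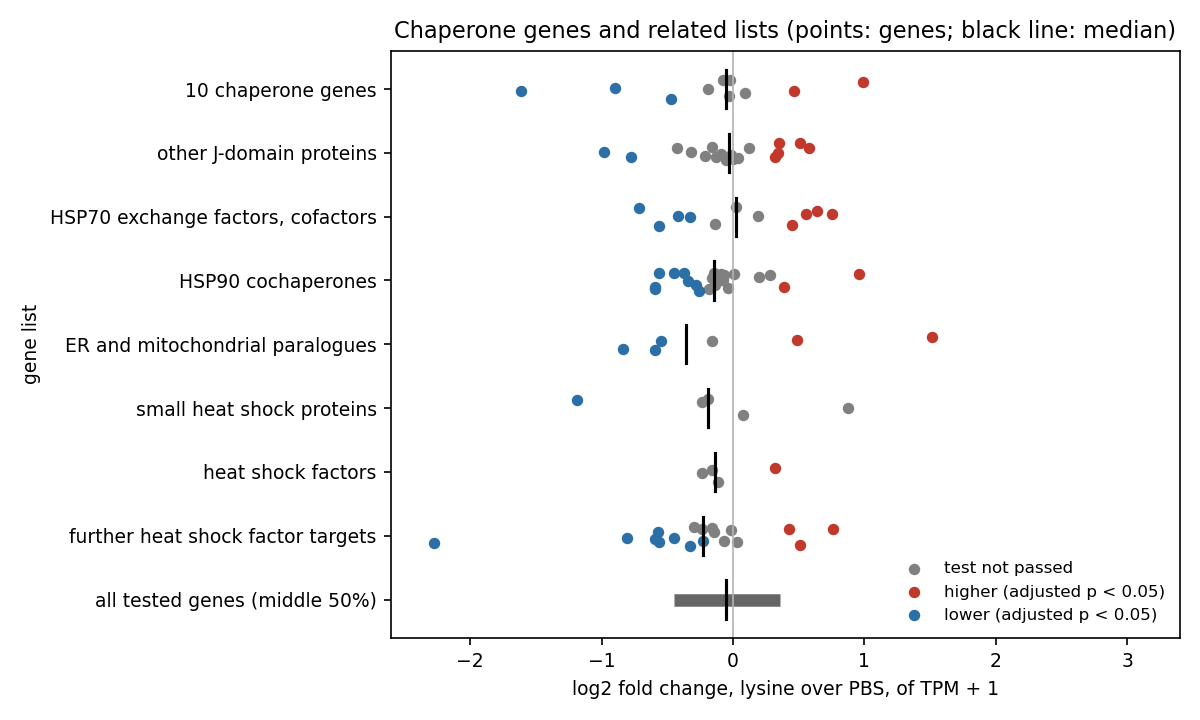
Log2 fold change of lysine over PBS on the log2(TPM + 1) scale for the 10 chaperone genes and 7 related lists, with a point per tested gene, a black line at each median and, at the bottom, the middle 50% of all tested genes. Each list spreads to both sides of 0, with Hspa8 at -1.61 at the low end of the chaperone genes and Hspa9 at 1.51 at the high end of the paralogues.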

How the data were processed

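The authors deposited a table of TPM per gene model with a column per sample. The series' design text states RSEM quantification as TPM, and HISAT2, StringTie, RSEM, edgeR and the build GRCm38.p6 appear, per the submitters' processing notes, without roles. Their versions and settings, the annotation and the strand setting were not given in the sources used here. Lysine columns carry the letter K, its 1-letter code, and the replicate number.

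A gene was tested if 3 or more samples reached 1 TPM. The test was limma 3.58.1 (R 4.3.3, intensity trend, Benjamini-Hochberg) on log2(TPM + 1), a scale that understates the change of low genes. The fit was tested on simulated data with independent noise and far fewer changed genes than were called here. Each sum or ratio used TPM as deposited. Positions, transcripts and pseudogenes came from GENCODE M21 on GRCm38, and promoters from RefSeq. Any 2 samples of the same group had equal TPM at no more than 0.598% of tested genes, so each was counted as a separate library.

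The members and the gene lists were chosen with earlier results of these data known. Named were all members, up to 4 genes with the smallest adjusted p in each related list, and 10 fixed genes (Hsf1, Hsf2, Hsbp1, Bag3, Stip1, Hspb1, Hspa5, Hspa9, Hsp90b1, Trap1). A gene that this rule names is not reported here. Others (Hsf5, Hspa13, Hspb3, Hspb8, Cryab, Cd209a, Elane, S100a8, S100a9, Retnlg, Mcpt4, Cpa3) were chosen after their values were seen. Alternatives were a replicate block, another pseudocount, filter, scaling or model, summed copies, and leaving out each sample.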

Additional observations from a re-analysis of the deposited data

How the results depend on the processing

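The counts of members called higher (2 in all 15 alternatives) and lower (2 or 3), of all genes called and of related genes called stayed within 1.5 times their reported values under every alternative run. Under quantile normalization and without lysine replicate 3, the 3 lower members included Dnaja1 in place of Hspa1b. The calls of Hspa8, Hspa4l and Hsp90aa1 held in all 15, with log2 fold changes from -1.66 to -1.56, 0.93 to 1.08 and 0.40 to 0.51. That of Hspa1a held in the 14 that fitted it as its own gene (-1.02 to -0.72), and that of Hspa1b held in 6 of 14, from -0.62 to -0.31. Signs turned for Hspa4 (0.018) and Dnajb1 (0.022) under median-of-ratios scaling. They also turned for Dnajb1 without PBS replicate 3 (-0.054 to 0.012 with each sample left out) and for Hspb1 without lysine replicate 3 (0.12) or PBS replicate 1 (0.059), with a range from -0.49 to 0.12. None of these 3 genes passed the test in any setting, and the cause was not tested. With the replicate number as a block, 7339 genes were called against 6904, with 2 members higher and 3 lower. Paired by number, both ratios gave an exact sign-flip p = 0.25, the smallest that 3 pairs allow. The deviations of same-numbered samples correlated at 0.171, 0.092 and 0.245, and each of the 3 lysine samples correlated best with its own number, a hint from the data and not from the labels. TPM keeps no depth, so the precision of low members such as Hspa1a and Hspa1b is not known beyond the spread of 3 samples.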
